A study of Mus musculus with 12 samples.

Results

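The resistin-like family of the mouse consists of 4 secreted proteins, encoded by Retnla, Retnlb, Retnlg and Retn. All 4 were taken by name out of 22180 genes measured on expression arrays of dorsal skin, and each had a single array row naming that gene alone. They were selected on these same array values, because Retnla fell where Retnlg rose. Their levels and differences over the 6 groups and both ages are therefore a description, and no test of them is given.

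Resistin-like proteins are small hormone-like molecules rich in cysteine. Retnla encodes RELMα, a product of macrophages exposed to the type 2 cytokines IL-4 and IL-13 through the factor STAT6, and of epithelial cells. In mouse skin RELMα is known as an antibacterial protein that depends on dietary vitamin A. Retnlg encodes RELMγ, found in bone marrow and neutrophils. Retn encodes resistin, which in mice comes mainly from white adipocytes and counters insulin. Retnlb encodes RELMβ of intestinal goblet cells.

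All mice were C57Bl/6. The 6 groups were WT, IL-6KO (mice lacking the cytokine IL-6), IL-17C+ (mice overexpressing the cytokine IL-17C) sampled as involved (affected) and uninvolved skin, and IL-17C+KO (the same transgene with IL-6 missing) sampled in both ways. The sources used here do not give the promoter or the cells that drive the transgene. Each group had n = 2 arrays, 1 of skin at 10 weeks and 1 at 14 weeks of age, so the spread within a group includes any change with age. Each array read a pool of male and female skin from 4 mice (WT and IL-6KO at 10 weeks) or 5 mice (all others), and no further treatment is labelled. The skin type field reads involved for the IL-6KO pools, which carry no transgene, and uninvolved for WT. Values below are the deposited RMA intensities on a linear scale or their log2. Array medians, 15.7 to 18.8, serve as a guide to how low a value is. A lower value in skin can mean fewer cells of a type or less RNA per cell, and these cannot be told apart here. The number of arrays limits the precision of every value, and each p-value reflects no more than the spread among the 12 pools.

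Several pools went against their labels. Il17c read 55.98 and 98.9 (10 and 14 weeks) in IL-17C+ involved skin. IL-17C+ uninvolved skin had only 26.8 and 17.8, and IL-6KO skin, which should hold no transgene, 78.9 and 72.2. WT skin read 25.5 and 31.1. In IL-17C+KO mice Il17c was higher in uninvolved skin (71.7 and 76.1) than in involved skin (39.9 and 49.1). The sources used here do not say whether this row reads the transgene. Il6 read 6.42 and 6.92 in IL-6KO skin, the lowest 2 of the 12 arrays, but 30.5 and 32.1 in IL-17C+KO uninvolved skin, the highest 2. Nor is it stated which part of Il6 the row covers or the knockout removes. The epidermal keratin Krt10 had group means of 12.11 to 12.57 (log2), so the skin label held in each group. All groups are therefore named as labelled, and each direction rests on these labels. This bears most on the site comparison in IL-17C+KO skin, which ran opposite to that in IL-17C+ skin for Retnla, Retnlg and neutrophil genes. Whether the site labels of these pools were exchanged was not tested.

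Retnla was high in WT and in IL-17C+ uninvolved skin and lowest in IL-17C+ involved skin. At 10 and 14 weeks its intensity was 258 and 859.5 in WT, and 469 and 423 in IL-17C+ uninvolved skin. It was 15.8 and 11.9 in IL-17C+ involved skin. The arrays of involved skin lay below their own array medians of 16.9 and 16.7, so the size of this fall is uncertain. Among the pools labelled as lacking IL-6, IL-6KO skin read 199 and 29.2. The IL-17C+KO pools read 216 and 59.4 for involved and 44.3 and 25.4 for uninvolved skin. Every one of these 6 values lay above both IL-17C+ involved arrays and below both WT arrays. The 12 arrays ranged 72.3-fold.

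In order of mean log2 level ± SD (n = 2 each), Retnla stood at 8.88 ± 1.23 in WT and 8.80 ± 0.11 in IL-17C+ uninvolved skin. IL-17C+KO involved skin followed at 6.82 ± 1.32, IL-6KO at 6.25 ± 1.96, IL-17C+KO uninvolved at 5.07 ± 0.57 and IL-17C+ involved skin at 3.78 ± 0.29. The first 2 groups overlapped, as did IL-17C+KO involved with IL-6KO, and IL-6KO with IL-17C+KO uninvolved. The arrays of the other neighbours in this order did not overlap.

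**Figure D1:**
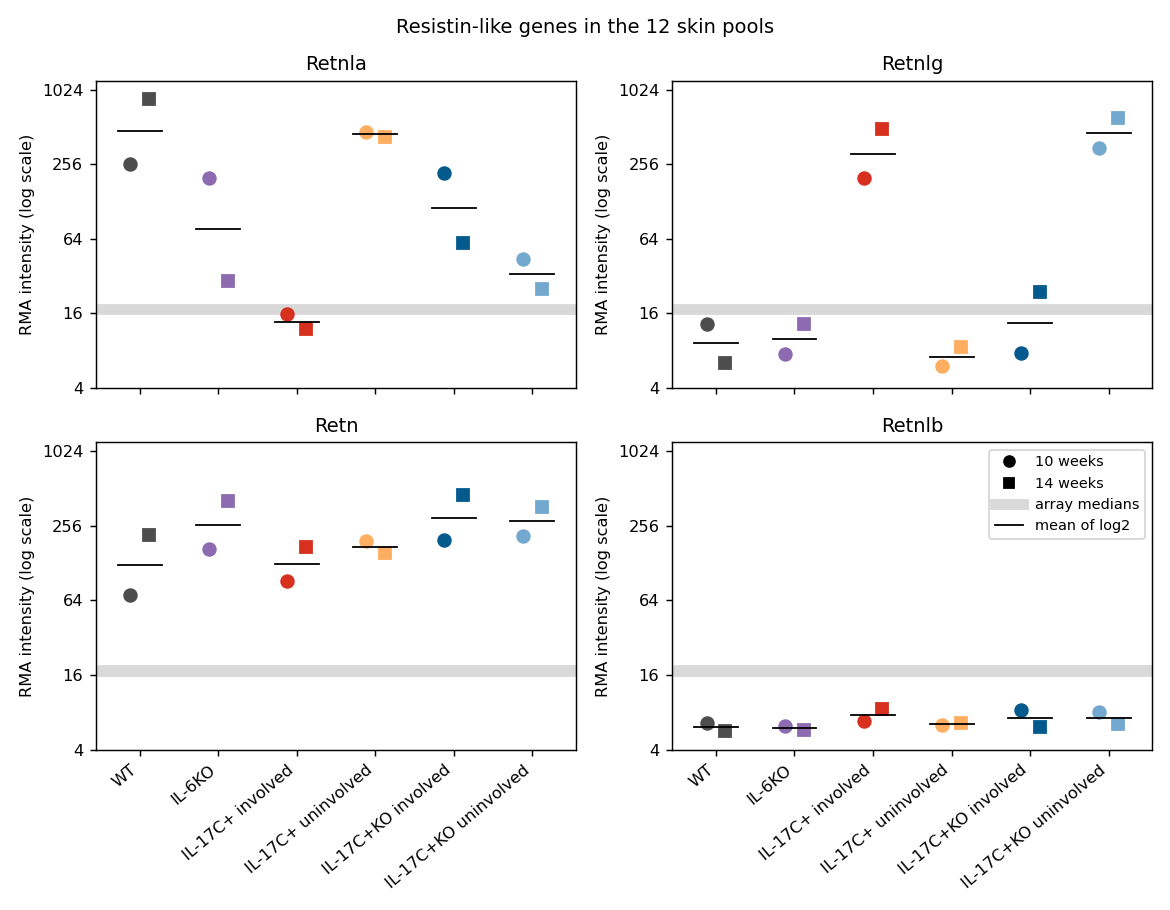
RMA intensity on a log scale of the 4 genes in the 12 skin pools, with circles for 10 weeks, squares for 14 weeks, a line for the mean of log2 in each group (n = 2) and a grey band for the range of array medians. Retnlg is high in IL-17C+ involved and IL-17C+KO uninvolved skin, the groups with the lowest mean Retnla, Retn is above the band on all arrays and Retnlb below it on all arrays.

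Retnlg was near or below the array medians in 4 groups and high in 2. IL-17C+ involved skin read 199 at 10 and 489 at 14 weeks, and IL-17C+KO uninvolved skin 348 and 607. WT skin read 13.2 and 6.39, IL-6KO skin 7.48 and 13.05, IL-17C+ uninvolved skin 6.00 and 8.51, and IL-17C+KO involved skin 7.63 and 23.6. Among these 8 low arrays only the last, IL-17C+KO involved at 14 weeks, exceeded its array median of 16.2. The 2 high groups overlapped with each other, and so did each pair of neighbours among the 4 low groups. No array lay between 23.6 and 199. Since 7 of the 8 low arrays lay below their medians, every Retnlg fold over a low group below is uncertain in size. On the log2 scale the group means ± SD (n = 2 each) were 8.84 ± 0.57 (IL-17C+KO uninvolved) and 8.28 ± 0.92 (IL-17C+ involved). The other 4 ran from 3.75 ± 1.15 in IL-17C+KO involved to 2.84 ± 0.36 in IL-17C+ uninvolved skin.

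Involved was first compared with uninvolved skin within a genotype. In IL-17C+ mice Retnla was 32.4-fold lower in involved skin, a log2 difference of -5.02 ± 0.72 (standard error of limma). It was 29.6-fold lower at 10 weeks and 35.6-fold at 14 weeks. Retnlg differed the other way, by 5.45 ± 0.46 (43.6-fold higher), with 33.2-fold at 10 weeks and 57.4-fold at 14 weeks. Against WT the values were close to these, -5.10 ± 0.72 for Retnla and 5.08 ± 0.46 for Retnlg, but both comparisons share the involved arrays. In neither comparison did the arrays of the groups overlap for Retnla or Retnlg. Of all genes, 23.4% were lower and 24.5% higher without overlap in involved than in uninvolved IL-17C+ skin. Against WT these shares were 16.4% and 20.4%. IL-17C+ uninvolved skin and WT overlapped for both genes (Retnla -0.08 ± 0.72, Retnlg -0.36 ± 0.46), and single arrays turned the sign of each difference.

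In IL-17C+KO mice the difference by site ran the opposite way for both genes. In skin labelled involved Retnla was 3.37-fold higher than in uninvolved skin (1.75 ± 0.72), with 4.87-fold at 10 weeks and 2.34-fold at 14 weeks. The log2 difference was 1.06 without the 10-week involved array. Retnlg was 34.2-fold lower (-5.10 ± 0.46), with 45.6-fold at 10 weeks and 25.7-fold at 14 weeks. The arrays again did not overlap, as for 21.6% of all genes in the higher and 17.6% in the lower direction. The site comparisons of the 2 genotypes share no array.

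**Figure D2:**
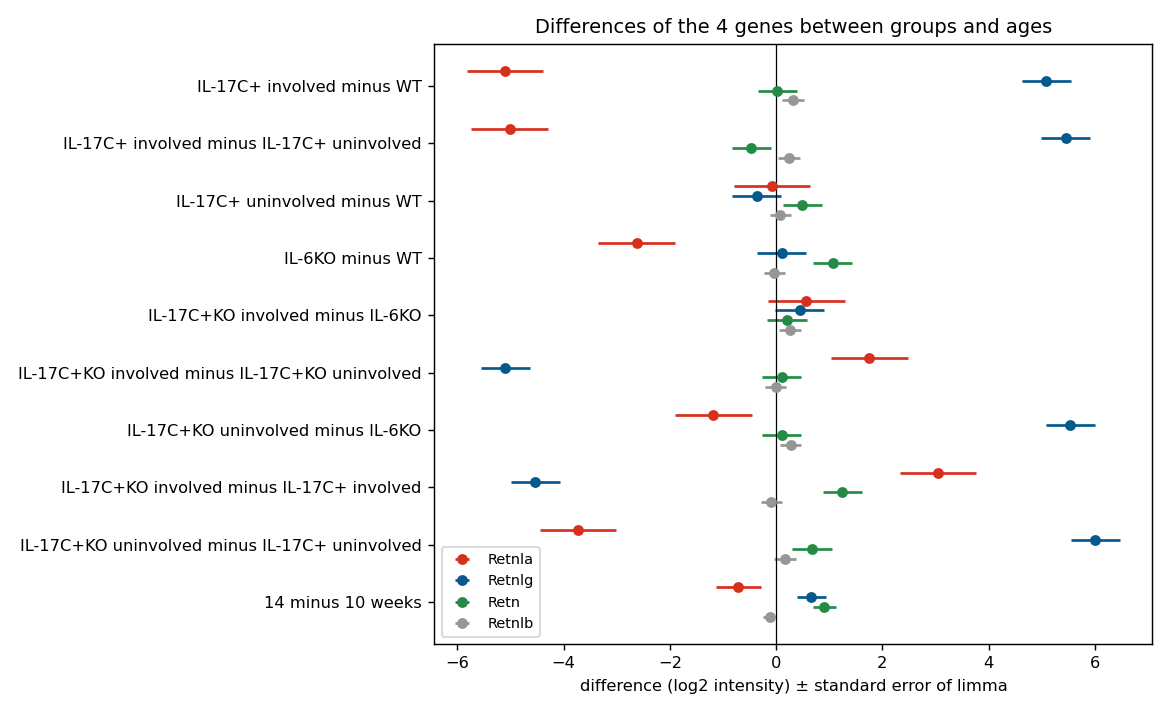
Differences in log2 intensity, with the standard error of limma as bars, of the 4 genes between groups and between ages. Retnla and Retnlg lie on opposite sides of 0 in the comparisons of involved with uninvolved skin, and the sides are exchanged between IL-17C+ and IL-17C+KO mice.

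IL-17C+KO skin was next compared with IL-17C+ skin of the same site label. Between IL-17C+KO and IL-17C+ involved skin Retnla differed by 3.04 ± 0.72 (8.25-fold higher) and Retnlg by -4.54 ± 0.46 (23.2-fold lower). Between the uninvolved pools of these genotypes Retnla differed by -3.73 ± 0.72 (13.3-fold lower) and Retnlg by 6.01 ± 0.46 (64.3-fold higher). None of these 4 comparisons overlapped. Without overlap lay 23.5% of all genes higher and 21.4% lower for involved, and 19.7% higher and 21% lower for uninvolved skin. In mice without the transgene, IL-6KO skin had 6.18-fold less Retnla than WT (-2.63 ± 0.72), without overlap as for 14.7% of all genes. This value was -4.09 without the 10-week and -1.16 without the 14-week WT array, so single pools moved it by over 1.5 times. Retnlg in IL-6KO and WT overlapped (0.10 ± 0.46).

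Against IL-6KO skin, the control of the same IL-6 label, IL-17C+KO involved skin overlapped for both genes (Retnla 0.57 ± 0.72, Retnlg 0.44 ± 0.46). The Retnla value was -0.67 without the 14-week IL-6KO array and the Retnlg value -0.14 without the 14-week IL-17C+KO involved array. IL-17C+KO uninvolved skin had more Retnlg than IL-6KO skin (5.54 ± 0.46, 46.5-fold) without overlap, as 17.1% of all genes. Retnla in it overlapped with IL-6KO skin (-1.18 ± 0.72), and the difference was 0.05 without the 10-week IL-6KO array.

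Retnla and Retnlg are neighbours on mouse chromosome 16, in the order Retnlb, Retnla, Retnlg, while Retn lies on chromosome 8. The set of RefSeq promoters used here holds those of Retnla, Retnlg and Retn but not that of Retnlb. The 250 bases before the start are shown for the 2 genes that moved in opposite directions, from RefSeq (GRCm38.p6, plus strand, chr16:48842359-48842608 for Retnla and chr16:48872358-48872607 for Retnlg). Capitals mark a match to the motif known for STAT6, the half-sites TTC and GAA with any 4 bases between them.
Retnla: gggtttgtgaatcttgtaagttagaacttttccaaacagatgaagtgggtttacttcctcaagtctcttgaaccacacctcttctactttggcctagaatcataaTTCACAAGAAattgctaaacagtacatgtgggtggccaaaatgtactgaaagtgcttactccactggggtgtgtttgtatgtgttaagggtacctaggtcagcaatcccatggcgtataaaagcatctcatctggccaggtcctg
Retnlg: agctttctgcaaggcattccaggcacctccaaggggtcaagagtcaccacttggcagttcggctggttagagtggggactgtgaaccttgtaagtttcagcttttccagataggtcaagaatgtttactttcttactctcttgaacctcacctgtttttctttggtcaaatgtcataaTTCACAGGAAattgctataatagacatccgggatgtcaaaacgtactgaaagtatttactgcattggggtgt
In a local alignment 138 of 178 columns (77.5%) were identical, against 50.2% and 51.3% in the best local alignments of Retnla and Retnlg with the Retn promoter. The alignment of Retnla with Retnlg ran from 250 to 74 bases before the start in Retnla and from 176 to 1 in Retnlg. Each of the 2 promoters held 1 match to the STAT6 motif, and Retn held 0. The matches fell in the same aligned columns, 145 to 136 bases before the start in Retnla and 72 to 63 before it in Retnlg. They differed by A7G, counted from the 5′ end of the match with the Retnla base first. This motif, which reads alike on both strands, was found in 5.85% of 32851 promoters of this length. The C/EBP motif TTNNGNAA, on either strand, had 3 matches in Retnla, 1 in Retnlg and 0 in Retn, and at least 1 in 36.8% of promoters. One Retnla match to it overlapped the PU.1 motif GAGGAA (1 match in Retnla, 0 in Retnlg and Retn, 23.3% of promoters). The Retnlg match to the C/EBP motif, 246 to 239 bases before the start, lay outside the stretch aligned with Retnla. The counts of matches thus compare partly different stretches. The STAT motif TTCNNNGAA (7.02% of promoters) and the NF-κB motif, GGG and TTTCC with any 2 bases between (1.41%, either strand), had 0 matches in the 3. A match describes letters only, and the arrays do not measure binding.

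RELMα is often read as a sign of alternatively activated macrophages. Taken as a whole, a list of 18 other genes of that state did not move with Retnla, though single genes of it did (given below). Between IL-17C+ involved and uninvolved skin limma called 1 of the 18 higher and 1 lower, against 0.775% higher and 0.834% lower of all genes. Their median log2 difference was -0.15, and that of all genes 0.02. The lectin gene Mgl2 fell by 1.69 ± 0.29 (adjusted p = 0.0129, limma). The chitinase-like gene Chil3, which neutrophils and their precursors also express, rose by 3.18 ± 0.50 (adjusted p = 0.00726). Each of these calls was lost without either IL-17C+ involved array and without the 10-week IL-17C+ uninvolved array. The folate receptor gene Folr2 had -1.28 ± 0.38 and did not pass (adjusted p = 0.141).

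In IL-17C+KO skin, involved against uninvolved, 2 of the 18 fell and 0 rose, with 0.478% of all genes lower and 0.0271% higher. They were Chil3 (-2.93 ± 0.50, adjusted p = 0.0248) and the arginase gene Arg1 (-1.66 ± 0.27, adjusted p = 0.0179), both opposite in sign to Retnla, while Mgl2 had 0.71 ± 0.29 (adjusted p = 0.711). Both calls, by limma, were lost without either IL-17C+KO involved array and without the 14-week IL-17C+KO uninvolved array, and that of Arg1 also without the 10-week one. Chil3 did not pass with no block for age either. In IL-6KO against WT skin, where Retnla was lower, limma called 0 of the 18 (0.455% of all genes either way, and 1865 genes at unadjusted p under 0.05). Mgl2 had -1.05 ± 0.29 there (adjusted p = 0.211), its arrays not overlapping. All 13 monocyte and macrophage markers lay below 0 in IL-6KO skin, with a median of -0.61 and 0 calls by limma. Their part in the lower Retnla was not tested. These markers had 1 of 13 called between IL-17C+ involved and uninvolved skin, the lipopolysaccharide co-receptor Cd14, which rose by 3.28 ± 0.45 (adjusted p = 0.00312) and lost its call without the 14-week IL-17C+ involved array. Cd14 fell by 3.19 ± 0.45 in the IL-17C+KO comparison (adjusted p = 0.00837), a call lost without the 10-week IL-17C+KO involved or the 14-week IL-17C+KO uninvolved array. Of 6 measured eosinophil markers, another source of type 2 signals, 0 were called by limma in either comparison, and their group means were low (Epx 2.75 to 3.13, log2).

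The type 2 cytokines that induce Retnla were themselves low. The group means of Il4 lay at 2.72 to 3.40 and those of Il13 at 3.27 to 4.07 (log2), against array medians of 3.97 to 4.23. Of 12 measured genes of this axis 1 rose in IL-17C+ involved against uninvolved skin, the shared receptor subunit Il4ra (1.15 ± 0.25, adjusted p = 0.0356, limma). Its call was lost without any 1 of 6 arrays, namely those of IL-17C+ involved, IL-17C+ uninvolved and IL-17C+KO uninvolved skin at either age. The alarmin Il33 had 1.43 ± 0.35 (adjusted p = 0.0647). In IL-17C+KO skin limma called 0 of 12, Il33 having -1.30 ± 0.35 (adjusted p = 0.21) and Il4ra -1.10 ± 0.25 (adjusted p = 0.0903). Stat6 kept group means of 6.95 to 7.08.

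Genes of skeletal muscle, which lies under the dermis, did move with Retnla. Their list mean (21 genes, log2) lay at 7.78 and 7.51 (10 and 14 weeks) for IL-17C+ involved, 8.22 and 8.79 for IL-17C+KO uninvolved and 8.92 and 8.32 for IL-6KO skin. It lay at 9.62 and 10.40 for WT, 10.27 and 9.90 for IL-17C+ uninvolved and 10.08 and 8.73 for IL-17C+KO involved skin. Over the 12 arrays it correlated with Retnla at Pearson r = 0.943 and Spearman rho = 0.93, a description of arrays that share tissue and group. Between IL-17C+ involved and uninvolved skin 18 of 21 muscle genes fell and 0 rose (median -2.42), among them the calcium store protein Casq1 by 3.70 ± 0.50 (adjusted p = 0.00312, limma) and the myosin-binding protein Mybpc2 (-3.002 ± 0.60, adjusted p = 0.0264). Leaving out the 10-week IL-17C+ involved array ended the Casq1 call, and leaving out any 1 of the 4 arrays compared ended that of Mybpc2. In IL-17C+KO skin limma called 0 of 21, with a median of 0.93 and Myh1 at 1.65 ± 0.45 (adjusted p = 0.241). In IL-6KO against WT skin the muscle median was -1.17, with 1 of 21 genes above 0. Limma called 2 lower there, against 0.455% of all genes either way. With the muscle mean as a covariate, the Retnla difference by site in IL-17C+ skin went from -5.02 ± 0.72 to -1.57 ± 1.17. That in IL-17C+KO skin went from 1.75 ± 0.72 to 0.49 ± 0.65. Between IL-6KO and WT skin Retnla went from -2.63 ± 0.72 to -0.66 ± 0.80. The covariate follows the groups, so it also takes up differences that belong to them.

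By pattern over the 12 arrays, the 5 genes most like Retnla among 4949 searched were Ckm (r = 0.962), Krt15 (0.959), Tnnc2 (0.952), Akap12 (0.949) and Cited2 (0.948). Ckm, the creatine kinase of muscle, and Tnnc2, a troponin of fast muscle fibres, belong to the muscle list. Krt15 is a keratin of basal epidermis and hair follicle stem cells, and its group means ran from 11.37 in WT to 8.23 in IL-17C+ involved skin. No gene of the macrophage list was among the 5. The mean of that list correlated with Retnla at r = -0.049, but the list held genes of both directions. The group means of Mgl2, Folr2 and the chemokine gene Ccl24 stood in the same order as those of Retnla. They ran from 6.42, 7.20 and 4.93 in WT to 4.25, 5.74 and 3.98 in IL-17C+ involved skin (log2). Those of Chil3 and Arg1 were highest in IL-17C+ involved and IL-17C+KO uninvolved skin, where mean Retnla was lowest.

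**Figure D3:**
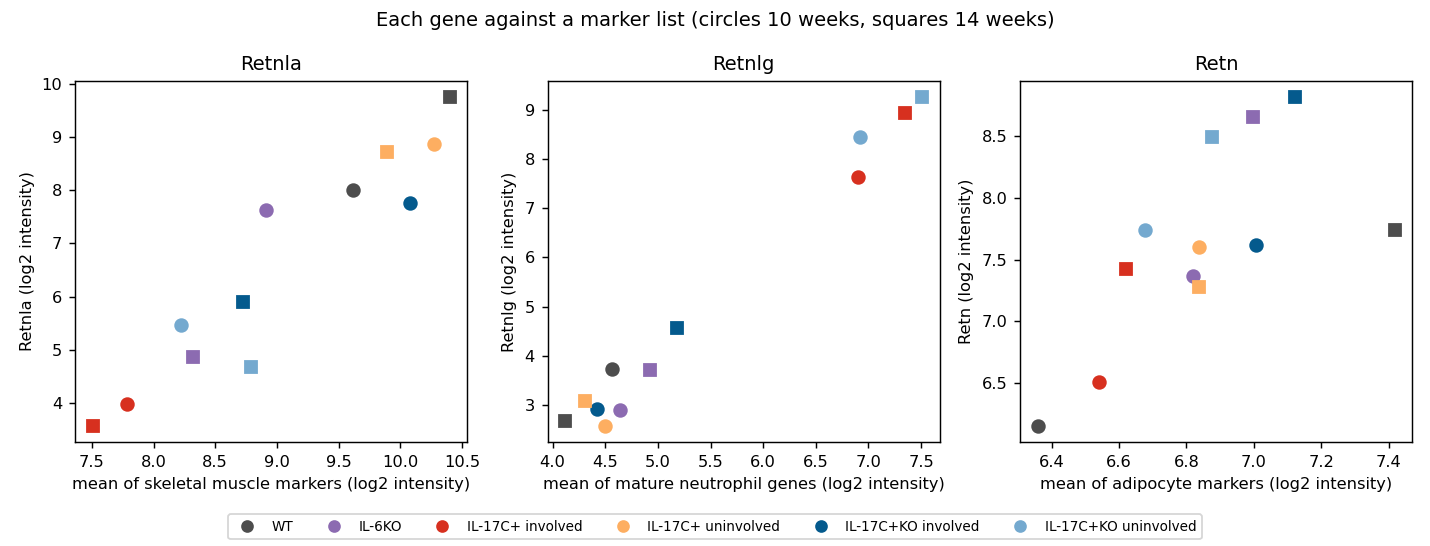
Each gene (log2 intensity) against the mean of a marker list (log2 intensity) on the 12 arrays, coloured by group, circles for 10 and squares for 14 weeks. Retnla rises along the muscle mean, Retnlg separates the 4 arrays with high neutrophil genes from the other 8, and Retn spreads along the adipocyte mean.

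Retnlg moved with genes of mature neutrophils, the short-lived granulocytes that enter inflamed skin. Of 17 measured genes of this list, which leaves out Retnlg, 11 rose and 0 fell in IL-17C+ involved against uninvolved skin (median 2.66). The calprotectin subunits S100a9 and S100a8, which stressed keratinocytes also make, rose by 6.31 ± 0.75 (adjusted p = 0.00137, limma) and 5.90 ± 0.72 (adjusted p = 0.00157). The stefin Stfa2l1 rose by 5.49 ± 0.53 (adjusted p = 0.000289) and the lectin receptor Clec4d by 4.22 ± 0.42 (adjusted p = 0.000373). Ly6g, the surface marker that defines mouse neutrophils, had 1.54 ± 0.38 and did not pass (adjusted p = 0.0705). With the muscle mean as a covariate limma called 0 of 17. The covariate follows the groups, and with it the standard error of Retnlg in this comparison went from 0.46 to 0.77. The lost calls therefore do not tell what part muscle content has. The mean of the neutrophil list (log2) lay between 6.90 and 7.51 on the 4 arrays with high Retnlg. The other 8 arrays had 4.12 to 5.18, and the highest of them, IL-17C+KO involved at 14 weeks, was also the one with the most Retnlg.

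In IL-17C+KO involved against uninvolved skin 9 of the 17 fell and 0 rose (median -2.15). Stfa2l1 fell by 4.75 ± 0.53 (adjusted p = 0.0012, limma), Clec4d by 4.03 ± 0.42 (adjusted p = 0.000826), the collagenase Mmp8 by 3.88 ± 0.37 (adjusted p = 0.00034) and Clec4e by 3.67 ± 0.43 (adjusted p = 0.00166). S100a8 (-3.45 ± 0.72, adjusted p = 0.0657) and S100a9 (-3.24 ± 0.75, adjusted p = 0.108) did not pass. Without the 14-week IL-17C+KO uninvolved array 3 of the 17 fell, Clec4e no longer among them. The difference between the 2 site comparisons, a limma interaction term, was below 0 for all 17 and passed for 14 of them. Of all genes 2.58% passed in either direction. Of the 17, limma called 0 between IL-6KO and WT skin and 0 between IL-17C+ uninvolved skin and WT (0.0541% of all genes, and 1261 genes at unadjusted p under 0.05). Between IL-6KO and WT skin 10 of the 17 lay above 0 (median 0.07). The largest differences there were those of S100a8 (2.98 ± 0.72, adjusted p = 0.125, limma) and S100a9 (2.81 ± 0.75, adjusted p = 0.181).

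**Figure D4:**
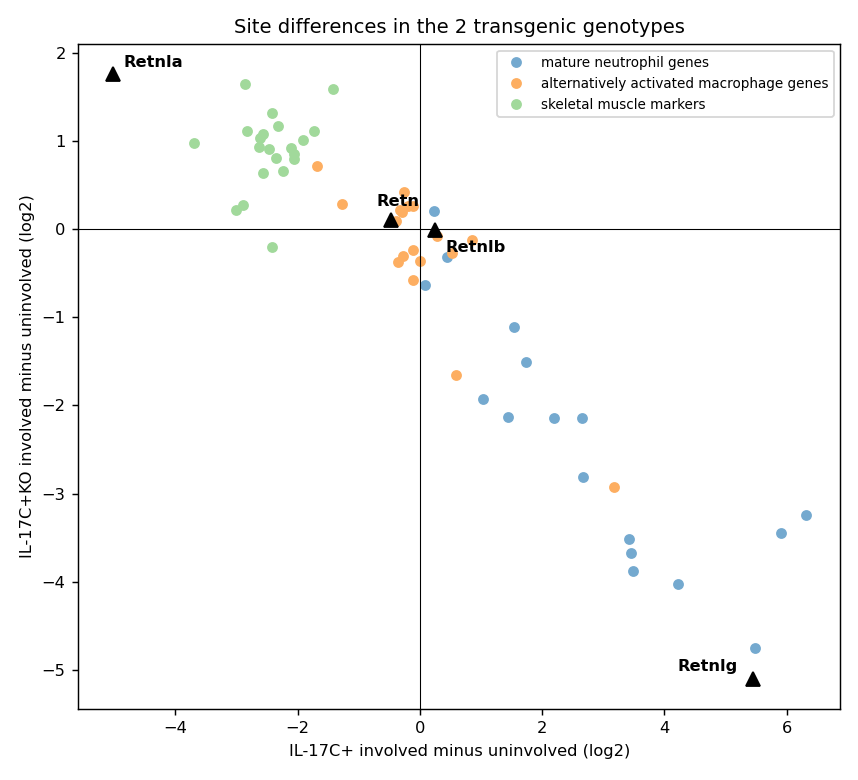
Log2 difference between involved and uninvolved skin in IL-17C+ mice (horizontal) and in IL-17C+KO mice (vertical) for the 4 resistin-like genes (triangles) and the genes of 3 lists. Retnlg lies with mature neutrophil genes at the lower right (5.45 and -5.10) and Retnla at the upper left (-5.02 and 1.75), beyond the muscle genes and away from most macrophage genes near 0.

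The 5 genes most like Retnlg over the 12 arrays were Mmp8 (r = 0.991), Stfa2l1 (0.989), Clec4d (0.984), Saa3 (0.984) and Trem1 (0.982), of which 4 are in the mature neutrophil list. The 4 arrays with high Retnlg set these values, since the arrays fell into 2 separate sets. Genes of neutrophil precursors in bone marrow behaved differently by gene. Of 10, limma called 2 higher in IL-17C+ involved skin, Lcn2 (3.40 ± 0.45, adjusted p = 0.00261) and Chil3. Ngp had 1.37 ± 0.37 (adjusted p = 0.106). In IL-17C+KO involved skin 2 fell, Chil3 and Ngp (-2.06 ± 0.37, adjusted p = 0.0312), the call of Ngp being lost with no block for age, without the intensity trend, with only the compared arrays, and without either IL-17C+KO involved or the 14-week IL-17C+KO uninvolved array. The myeloperoxidase gene Mpo stayed at 3.31 to 3.38 and the elastase gene Elane at 3.003 to 3.58 in group means (log2), below the array medians.

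Retn, the gene of resistin, ranged only 6.34-fold over the arrays, and its 3 highest values were all in 14-week pools. The next was that of WT at 14 weeks (214), level with IL-17C+KO uninvolved skin at 10 weeks (213). Retn read 71.1 at 10 and 214 at 14 weeks in WT skin. IL-6KO skin read 165 and 405, and IL-17C+ skin 91.1 and 172 where involved and 194 and 155 where uninvolved. IL-17C+KO skin read 196 and 451 where involved and 213 and 360.0 where uninvolved. All 12 values exceeded their array medians. The 14-week pool was the higher one in 5 of 6 groups, IL-17C+ uninvolved skin being the exception, by 1.69-fold to 3.01-fold. Of all genes, 14.1% were higher at 14 weeks in at least 5 of 6 groups. The Retn difference between the ages over all groups was 0.91 ± 0.21, and limma called 0 of 22180 genes for age (1856 at unadjusted p under 0.05, and 0 also without the intensity trend). Retnlg was higher at 14 weeks in 5 of 6 groups too (0.66 ± 0.27), and Retnla lower in 5 of 6 (-0.71 ± 0.42, from -1.20 to -0.30 without single arrays), where 13.4% of all genes were as often lower.

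At 14 weeks the 3 pools labelled as lacking IL-6 had more Retn (405, 451 and 360.0) than the 3 others (214, 172 and 155). This split was singled out after the values were seen, and 8.84% of all genes were higher in the same 3 pools without overlap. At 10 weeks the 2 sets overlapped (165, 196 and 213 against 71.1, 91.1 and 194). Retn differed by 1.07 ± 0.37 between IL-6KO and WT skin, whose arrays overlapped, and by 0.66 without the 10-week WT array. It differed by 1.25 ± 0.37 between IL-17C+KO and IL-17C+ involved and by 0.68 ± 0.37 between the uninvolved skin of these genotypes, both without overlap, as were the 23.5% and 19.7% of all genes given above for these comparisons. The last value was -0.06 without the 14-week IL-17C+ uninvolved array. By site Retn overlapped in both genotypes (-0.47 ± 0.37 in IL-17C+ and 0.10 ± 0.37 in IL-17C+KO skin), and single arrays turned the sign of each.

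Adipocyte markers, 14 without Retn, had list means (log2) of 6.36 and 7.42 in WT at 10 and 14 weeks, where Retn rose most with age. They read 6.84 at both ages in IL-17C+ uninvolved skin, where Retn was not higher at 14 weeks. In the other groups the list mean was only slightly higher at 14 weeks, while Retn rose by 0.76 to 1.29 (log2). The list mean read 6.82 and 6.998 in IL-6KO skin and 6.54 and 6.62 in IL-17C+ involved skin. IL-17C+KO skin had 7.01 and 7.12 where involved and 6.68 and 6.87 where uninvolved. Over the 12 arrays the list mean correlated with Retn at r = 0.684 and rho = 0.776, and with Retnla at r = 0.369 and rho = 0.35. Retn correlated similarly with the mean of sebaceous gland markers (r = 0.673) and keratinocyte markers (r = 0.661). Limma called 1 of 14 adipocyte genes between IL-17C+ involved and uninvolved skin, the carbonic anhydrase Car3, which fell by 1.87 ± 0.33 (adjusted p = 0.0132). It lost its call without either IL-17C+ involved or the 10-week IL-17C+ uninvolved array. Car3 does not stand for the list, which had a median of -0.13 with 6 of 14 above 0. The hormone Lep had -0.94 ± 0.63 (adjusted p = 0.618). In IL-17C+KO skin limma called 0 of 14, the largest difference being that of the glucose transporter Slc2a4 (0.86 ± 0.34, adjusted p = 0.666). The part of adipocyte content in the Retn values was not tested. The genes most like Retn were Nt5c3 (r = 0.935), Arfgef1 (0.931), Liph (0.927), Eapp (0.92) and Zpr1 (0.92), none of them an adipocyte marker of the list.

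Retnlb stayed at the bottom of the scale. Its intensity ran from 5.65 to 8.56 with a median of 6.46, below the array median on all 12 arrays, and it ranked between the 9.17 and the 21.0 percentile of genes. Group means ± SD lay between 2.57 ± 0.07 for IL-6KO and 2.93 ± 0.24 for IL-17C+ involved skin (log2, n = 2 each). Involved IL-17C+ skin was higher without overlap than WT (0.32 ± 0.20) and than uninvolved skin (0.24 ± 0.20), as was IL-17C+KO uninvolved than IL-6KO skin (0.28 ± 0.20), but at this level no order can be read from it. Of 7 goblet cell genes limma called 1 in IL-17C+ involved against uninvolved skin, the mucus protein Fcgbp, which fell by 3.21 ± 0.47 (adjusted p = 0.00499), a call lost without either IL-17C+ involved array. Fcgbp had group means (log2) of 8.48 in WT, 7.33 in IL-6KO, 5.11 and 8.32 for IL-17C+ involved and uninvolved, and 8.04 and 6.19 for IL-17C+KO involved and uninvolved skin. These means stood in the same order as those of Retnla, from WT down to IL-17C+ involved skin, as did those of Mgl2, Folr2 and Ccl24 above. In IL-17C+KO skin, where limma called 0 of 7, Fcgbp had 1.85 ± 0.47 (adjusted p = 0.173). The mucin Muc2 had group means of 4.07 to 4.51. The gene most like Retnlb was F10 (r = 0.794), less alike than the nearest genes of the other 3 members.

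Candidate partners and regulators outside the immune lists had few calls. Of 6 genes linked to signalling by resistin-like proteins, limma called 0 in either site comparison. The reported resistin receptor Cap1 had group means of 8.25 to 8.85, and Tlr4 4.83 to 5.23 (log2). Of 17 measured retinoid genes, relevant because vitamin A induces RELMα in skin, 1 rose in IL-17C+ involved against uninvolved skin, the retinoic acid binding protein Crabp2 (1.66 ± 0.27, adjusted p = 0.00858, limma). Its call was lost without either IL-17C+ involved or the 10-week IL-17C+ uninvolved array. The retinaldehyde dehydrogenase Aldh1a1 had -1.52 ± 0.39 (adjusted p = 0.0871), and in IL-17C+KO skin, where limma called 0 of 17, 0.84 ± 0.39 (adjusted p = 0.839). Sebaceous glands are another source of RELMα, and 1 of 11 measured genes was called there, the desaturase Scd3, which fell by 2.87 ± 0.43 in IL-17C+ involved skin (adjusted p = 0.00535). This call was lost without either 10-week IL-17C+ array. The list as a whole lay the other way, with 8 of 11 above 0 and a median of 0.45, and the fatty acid elongase Elovl3 had 2.04 ± 0.50 (adjusted p = 0.0674). Scd3 had 1.45 ± 0.43 in IL-17C+KO skin (adjusted p = 0.326), where limma called 0 of 11.

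Few neighbours of the members were called. Of Dppa2, Morc1 and Trat1 before the cluster on chromosome 16 and Dzip3, Cip2a and Myh15 after it, limma called 0 of 6 in either site comparison. Trat1, a T cell receptor adaptor, had differences of the same sign as Retnla but smaller, -0.65 ± 0.23 in IL-17C+ skin (adjusted p = 0.225) and 0.39 ± 0.23 in IL-17C+KO skin (adjusted p = 0.988). Its group means were low, 3.21 to 4.00 (log2). The largest difference in IL-17C+KO skin was that of Cip2a (-0.74 ± 0.48, adjusted p = 1), which turned to 0.16 without the 10-week IL-17C+KO involved array. On chromosome 8 the gene next to Retn, the myeloid membrane protein Mcemp1, rose by 2.19 ± 0.24 in IL-17C+ involved skin (adjusted p = 0.000719, limma) and fell by 2.15 ± 0.24 in IL-17C+KO involved skin (adjusted p = 0.0012), the latter call being lost without the 14-week IL-17C+KO uninvolved array. Mcemp1 is in the mature neutrophil list, and its neighbour Retn had no such difference.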

How the data were processed

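The deposited table holds RMA intensities made by the authors with Affymetrix Expression Console, per the submitters' processing notes. Versions, probe filters and genome build were not given in the sources used here. All values lie on a linear scale (2.50 to 18385), so log2 was taken here. The plan had assumed log2 values. Of 41345 rows, 23521 name 1 gene, and the row with the highest mean stood for each of 22180 genes. Differences were fitted over all 12 arrays with limma 3.58.1 in R 4.3.3 (group plus age, eBayes with trend, 5 residual degrees of freedom) and adjusted by Benjamini-Hochberg over all genes, with calls at an adjusted p under 0.05. The fit was tested on simulated data. Age pairs the arrays by label. The 4 genes and all lists were chosen with earlier results of these data known. From a list, up to 4 called genes and 2 not called with the largest differences were eligible to be named, and up to 5 genes of like pattern among genes above the median gene with a range over 1 (log2), leaving out predicted loci, small RNAs and receptor families. Neighbouring genes and defining markers given by level alone (such as Stat6, Il4, Mpo, Cap1 and Muc2) were named besides, the markers outside this rule. So were Mgl2 between IL-6KO and WT skin and the macrophage genes named for the order of their group means. Alternatives were no or another replicate block, no trend, another normalization, a low-value filter, row means, a muscle covariate, only the compared arrays, and each array left out. Promoters came from RefSeq and were aligned with Biopython 1.88.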

Additional observations from a re-analysis of the deposited data

Results flagged for a closer look

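The site difference (involved minus uninvolved) of Retnla and Retnlg pointed opposite ways in the 2 transgenic genotypes at both ages. The difference in IL-17C+KO minus that in IL-17C+ skin was 6.77 for Retnla and -10.54 for Retnlg (log2), and it was not tested because both genes were chosen for their pattern over these groups. It rests on the labels of 8 arrays.

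Of 30 other genes named in the site comparisons, 23 passed limma's test of this same interaction at an adjusted p under 0.05. Most were named for large site differences, from which the interaction is made, so their number has no meaning of its own. The values, log2 and in the same direction, were negative for the neutrophil genes Stfa2l1 (-10.24), S100a9 (-9.55), S100a8 (-9.35), Clec4d (-8.25), Mmp8 (-7.36), Clec4e (-7.11), Mcemp1 (-4.34) and Ly6g (-2.65). They were negative also for Cd14 (-6.47), Chil3 (-6.11), Lcn2 (-5.07), Ngp (-3.43), Il33 (-2.73), Crabp2 (-2.38), Arg1 (-2.26) and Il4ra (-2.25). They were positive, as for Retnla, in the muscle genes Casq1 (4.67) and Myh1 (4.50), in Fcgbp (5.06), Scd3 (4.32), Car3 (2.59), Mgl2 (2.40) and Aldh1a1 (2.36).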

How the results depend on the processing

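Differences of the 4 genes were the same with no replicate block for age (Retnla -5.02 and Retnlg 5.45 in IL-17C+ skin by site) and with a replicate block of genotype and age, since the design is balanced. Quantile normalization moved no difference of the 4 genes by more than their residual SD. Leaving out single arrays, the Retnla difference lay between -5.36 and -4.68 by site in IL-17C+ skin, -6.57 and -3.63 against WT, 1.06 and 2.44 by site in IL-17C+KO skin and 2.35 and 3.73 between involved IL-17C+KO and IL-17C+ skin. For Retnlg the same ranges were 5.07 to 5.83, 4.05 to 6.11, -5.68 to -4.52 and -5.12 to -3.96. With the skeletal muscle mean as a covariate, Retnla in this order went to -1.57 ± 1.17, -1.76 ± 1.14, 0.49 ± 0.65 and 0.56 ± 0.92. Retnlg went to 3.25 ± 0.77, 2.96 ± 0.75, -4.29 ± 0.43 and -2.96 ± 0.61. These values kept their direction. Others changed sign, among them Retnlg between IL-6KO and WT skin (0.10 to -1.15 ± 0.53). Retnla between IL-17C+KO involved and IL-6KO skin did so too (0.57 to -0.53 ± 0.63). Lep, Aldh1a1 and Mybpc2 turned to 0.10, 0.39 and 0.69 in IL-17C+ skin. Mybpc2 is part of that mean. Cip2a in IL-17C+KO skin turned to 0.067 with it, and ran from -1.65 to 0.16 without single arrays. Mature neutrophil genes higher in IL-17C+ involved skin became 0 of 17 with it, 10 to 12 without single arrays, and those lower in IL-17C+KO involved skin 3 to 11. Alternatively activated macrophage genes called by site in IL-17C+ skin were 0 lower and 0 higher with the covariate, 2 lower with the block of genotype and age or only the arrays compared, and 0 to 2 lower and 0 to 1 higher without single arrays. In IL-17C+KO skin they were 1 lower with no replicate block, 0 with the covariate and 0 to 2 without single arrays. Low signal limits Retnlb on all arrays and Retnlg in 4 groups.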
